A study of Mus musculus with 18 samples.

Results

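Undifferentiated mouse embryonic stem cells labelled Arf-C were compared with the control stem cells of the same study, labelled Ctrlv2, at day 0, before pancreatic differentiation. The comparison took genes with at least 0.5 FPKM (fragments per kilobase of gene, scaled per library) in at least 3 of the 6 libraries. This rule kept 14481 of the 54532 genes in the table. All of these cells carry the genotype label wild type and were grown on gelatine in GMEM with 15% serum and 1000 U/mL Lif. Each of the Ctrlv2, Arf-B and Arf-C groups holds 3 day 0 libraries, and Ctrlv2 and Arf-C hold 3 more each from day 8 of differentiation. The sources used here do not state by which change Arf-B or Arf-C were derived, or whether each is 1 clone, so the labels serve as names. The labels do not say that the replicates are separate cultures, so the p-values measure the spread between these libraries, which may be technical. In bulk RNA, fewer cells of a type and less RNA per cell cannot be told apart.

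The series is about p19Arf, the protein that the Cdkn2a locus encodes in an alternative reading frame beside p16Ink4a. In somatic cells p19Arf binds the ubiquitin ligase Mdm2 and so lets the transcription factor p53, encoded by Trp53, accumulate, and it is held in the nucleolus by nucleophosmin, encoded by Npm1. Mouse stem cells in serum and Lif renew through the Lif receptor, Jak1 and Stat3, and through a circuit of transcription factors around Pou5f1, Sox2 and Nanog, while Fgf4 signalling through Erk prepares them to leave that state.

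Of the 14481 genes tested, 3622 (25%) were higher and 3652 (25.2%) were lower in Arf-C at an adjusted p below 0.05 (limma on log2(FPKM + 1), Benjamini-Hochberg over all genes tested). At least a 2-fold change was reached by 244 of the higher genes (1.68%) and 511 of the lower ones (3.53%), and the median log2 fold change over all genes was 0.01. Reads on genes ranged from 24872495 to 33311220 in the 6 libraries. Pearson correlations across genes were 0.984 to 0.991 among the Ctrlv2 libraries, 0.987 to 0.991 among the Arf-C libraries and 0.944 to 0.960 between the groups. All 8 stem cell markers were expressed in all 6 libraries, with summed levels of 5169 to 5276 FPKM in Ctrlv2 and 4143 to 4986 FPKM in Arf-C. Of the markers of other cells, 7 of 8 for fibroblasts, 6 of 8 for primitive endoderm, 6 of 7 for trophoblast, 5 of 6 for mesendoderm, 4 of 5 for blood and 3 of 6 for neural progenitors were below 0.5 FPKM in all 6 libraries. The neural list summed to 20.2 to 23.2 FPKM in Ctrlv2 and 22.4 to 22.8 FPKM in Arf-C, most of it from Tubb3. The filter admitted 348 genes only through Ctrlv2 and 188 only through Arf-C, and 12571 genes reached 0.5 FPKM in all 6 libraries.

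**Figure D1:**
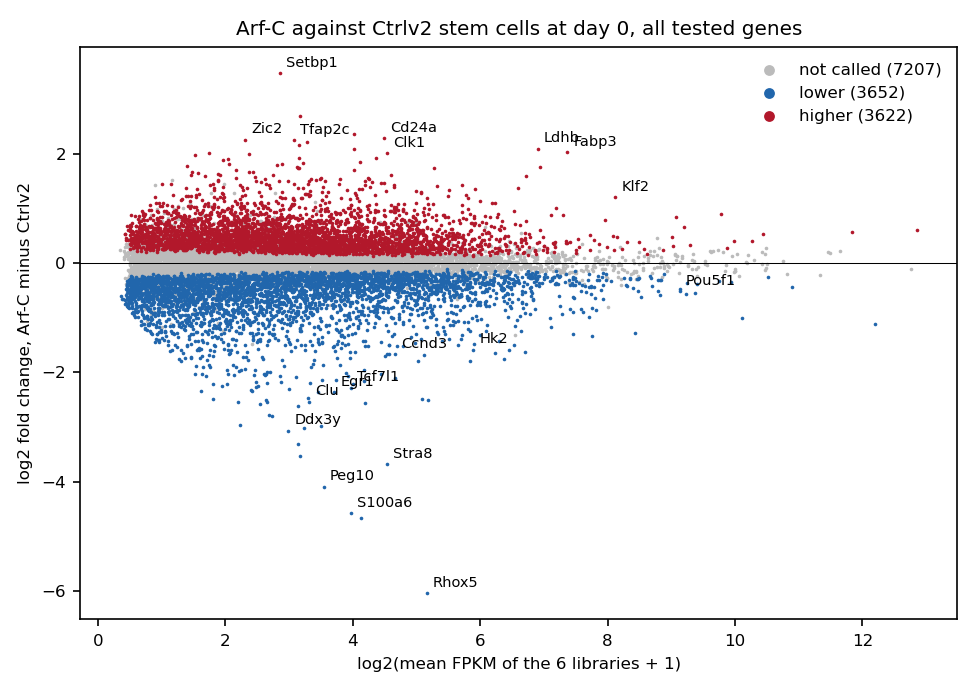
Log2 fold change of Arf-C minus Ctrlv2 at day 0 (vertical axis, log2 of FPKM + 1) against the log2 of the mean FPKM + 1 of the 6 libraries (horizontal axis), 1 point per tested gene. The 3622 higher genes are red, the 3652 lower ones blue and the others grey; the falls of Rhox5, S100a6, Peg10 and Stra8 reach further than any rise, and Setbp1 is the highest point.

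The largest falls outside the chromosome segments described further on were in genes of the germ line and the X-linked Rhox cluster, in an imprinted gene and in an S100 gene. Rhox5, a homeobox gene of the Rhox cluster, read 65.7, 80.4 and 61.9 FPKM in the 3 Ctrlv2 libraries and 0.0546, 0 and 0.158 FPKM in the 3 Arf-C libraries. S100a6, a calcium-binding protein, read 27.5, 31.1 and 28.7 FPKM in Ctrlv2 and 0.0904, 0.502 and 0.232 FPKM in Arf-C. Stra8, the gate to meiosis that retinoic acid induces in germ cells, read 41.8, 35.5 and 48.4 FPKM in Ctrlv2 and 2.47, 2.61 and 1.94 FPKM in Arf-C. In each of these genes every Arf-C library lay far below every Ctrlv2 library; over all tested genes every Arf-C library was below every control in 27.9% and above every control in 27%. On the log2(FPKM + 1) scale, which understates the change of low genes, Stra8 fell by 3.68 (SE 0.0994, adjusted p = 3.1e-13), and the differences were -6.03 for Rhox5 and -4.57 for S100a6. Rhox5 passed the filter only through Ctrlv2, as did Rhox6, Rhox10, Peg10, Myl4, Uty and Fam167a, and Setbp1, Gata2 and Lats2 passed only through Arf-C, so these genes had to differ and their values are a description without a test. For S100a6, where 1 Arf-C library just reached 0.5 FPKM, none is given either. The counts of gene lists below include such genes, for which the filter fixed the direction and the lack of overlap. Srgn of the endoderm list and Krt19 of the epithelial list, both admitted only through Ctrlv2, are further examples.

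Promoter windows are shown for 4 of these strongly lowered genes. Genes of the Rhox cluster and the germ line are textbook cases of silencing by promoter methylation at CG dinucleotides, and S100a6 belongs to neither group. Whether methylation has a part in these falls was not tested. Each window spans 250 bases before to 50 bases after the transcription start that RefSeq gives (build GRCm38.p6), in lower case with every CG dinucleotide in capitals. The Rhox5 window belongs to a start upstream of the gene start in the deposited table, which is at position 37804842 on chromosome X.
Rhox5, chrX:37754358-37754657, plus strand: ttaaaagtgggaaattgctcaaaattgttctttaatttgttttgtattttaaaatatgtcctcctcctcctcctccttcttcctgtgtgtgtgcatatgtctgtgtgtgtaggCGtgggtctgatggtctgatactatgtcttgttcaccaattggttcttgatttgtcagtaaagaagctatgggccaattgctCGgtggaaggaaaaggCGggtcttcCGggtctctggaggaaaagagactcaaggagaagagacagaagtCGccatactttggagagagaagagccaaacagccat
Rhox13, chrX:38120590-38120889, plus strand: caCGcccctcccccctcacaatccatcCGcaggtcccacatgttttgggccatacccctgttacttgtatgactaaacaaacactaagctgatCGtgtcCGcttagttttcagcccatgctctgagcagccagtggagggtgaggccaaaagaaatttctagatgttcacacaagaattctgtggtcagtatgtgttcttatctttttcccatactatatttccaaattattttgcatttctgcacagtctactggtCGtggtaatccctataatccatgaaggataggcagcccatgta
S100a6, chr3:90612644-90612943, plus strand: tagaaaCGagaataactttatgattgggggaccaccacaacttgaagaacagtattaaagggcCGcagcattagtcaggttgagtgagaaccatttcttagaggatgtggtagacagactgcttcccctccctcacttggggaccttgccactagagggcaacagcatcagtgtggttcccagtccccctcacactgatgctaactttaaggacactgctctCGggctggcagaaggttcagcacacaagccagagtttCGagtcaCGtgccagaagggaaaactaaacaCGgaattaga
Stra8, chr6:34920698-34920997, plus strand: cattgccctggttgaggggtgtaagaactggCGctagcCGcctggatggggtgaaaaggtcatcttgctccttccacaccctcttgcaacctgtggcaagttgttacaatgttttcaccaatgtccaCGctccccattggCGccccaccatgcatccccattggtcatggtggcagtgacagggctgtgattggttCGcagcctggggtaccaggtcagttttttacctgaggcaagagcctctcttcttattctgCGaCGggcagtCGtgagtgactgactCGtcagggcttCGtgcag
The Rhox5 and Rhox13 windows hold 5 CG dinucleotides each, the S100a6 window 6 and the Stra8 window 10. Over all 32851 RefSeq windows of the same length the median was 7, and 43.6% of windows held no more than 5. CG was searched as these 2 letters, which read the same on both strands, and 94.6% of all windows hold at least 1. Methylation was not measured here, and only 67.7% of the tested genes have a window, so the composition of higher and lower genes was not compared.

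The table lists 14 Rhox genes, of which 5 passed the filter, 3 of them only through Ctrlv2 as given above. Rhox13 and Rhox1, which reached 0.5 FPKM in Arf-C libraries too, fell. Of 25 tested germline genes, 13 fell and 2 rose, against 25.2% and 25% of all genes. Rhox13 read 14.1, 16.6 and 16.4 FPKM in Ctrlv2 and 0.564, 1.64 and 1.13 FPKM in Arf-C. Fmr1nb, a cancer-testis antigen gene, read 15.9, 13.4 and 17.3 FPKM in Ctrlv2 and 0.0879, 0.988 and 0.339 FPKM in Arf-C, so the groups did not overlap. Factors of piRNA silencing were among the germline genes that fell. Mael went from 19.9 ± 1.46 to 6.63 ± 0.81 FPKM (SD, n = 3 each; log2 fold change -1.46), Fkbp6 from 8.90 ± 0.851 to 1.39 ± 0.0983 FPKM (-2.05) and Piwil2, which lies in the chromosome 14 segment, from 17.7 ± 1.46 to 3.22 ± 0.121 FPKM (-2.14). The exceptions were Tdrd12, another piRNA factor, which rose from 2.56 ± 0.541 to 7.25 ± 0.22 FPKM, and Stk31. The median log2 fold change of the germline list was -0.47, beside 0.01 over all tested genes.

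Of 29 imprinted genes, 9 fell and 9 rose, against 25.2% and 25% of all genes. Peg10, a paternally expressed gene derived from a retrotransposon, read 19.8, 23.4 and 19.9 FPKM in Ctrlv2 and 0.34, 0.257 and 0.286 FPKM in Arf-C (log2 difference -4.09). Mest, also paternally expressed, read 10.5, 9.19 and 9.18 FPKM in Ctrlv2 and 0.94, 0.948 and 0.744 FPKM in Arf-C. Both genes were low in every Arf-C library. Zdbf2, Slc22a18 and Slc38a4 also fell at least 2-fold, whereas Peg3 rose from 1.57 ± 0.287 to 3.15 ± 0.48 FPKM (SD, n = 3 each). Among 17 genes of DNA methylation, 6 fell and 4 rose: the de novo methyltransferase Dnmt3b fell from 25.4 ± 0.714 to 13.8 ± 0.226 FPKM, and its relative Dnmt3a rose from 1.87 ± 0.0679 to 4.05 ± 0.412 FPKM. The helicase Hells rose by 0.75 on the log2 scale. Tet1, a 5-methylcytosine oxidase, was lower by the test (log2 fold change -0.55, adjusted p = 0.0138), but its libraries overlapped at 22.5, 41.7 and 27.3 against 24.2, 16.1 and 19.9 FPKM, and the call was lost without Ctrlv2 replicate 2 (adjusted p = 0.0684) or Arf-C replicate 2 (adjusted p = 0.0709).

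**Figure D2:**
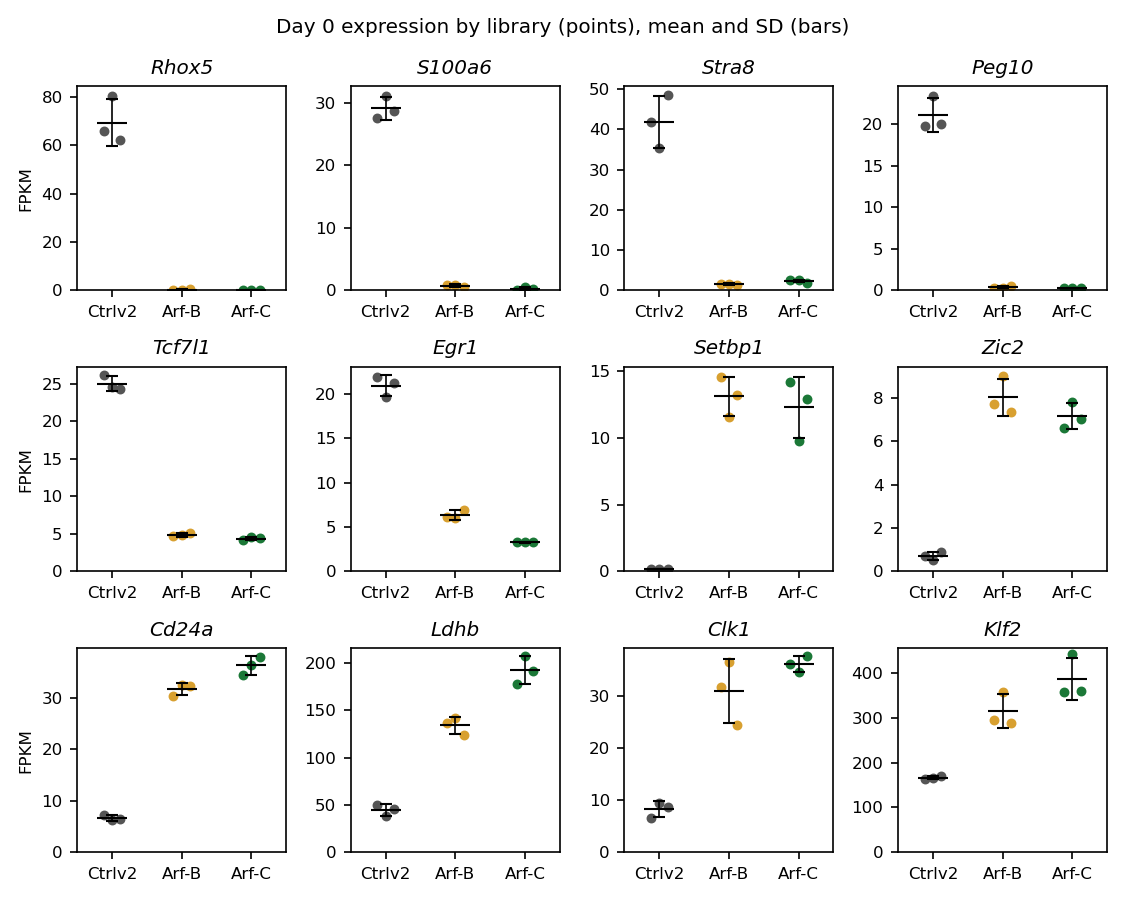
FPKM of 12 genes (vertical axes, each starting at 0) in the 3 day 0 libraries of Ctrlv2, Arf-B and Arf-C; points are libraries, and bars give the mean and SD. The Arf-C points lie below the Ctrlv2 points for Rhox5, S100a6, Stra8, Peg10, Tcf7l1 and Egr1 and above them for Setbp1, Zic2, Cd24a, Ldhb, Clk1 and Klf2.

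The largest rise among named genes was in Setbp1, a chromatin-binding factor, which read 0.162, 0.187 and 0.212 FPKM in Ctrlv2 and 14.2, 9.79 and 12.9 FPKM in Arf-C (log2 difference 3.47). Cdo1, which oxidises cysteine, rose from 4.35 ± 0.725 to 26.2 ± 2.12 FPKM, and Cd24a, a small surface glycoprotein, from 6.65 ± 0.516 to 36.3 ± 1.78 FPKM (SD, n = 3 each). The transcription factors Tfap2c (log2 fold change 2.24) and Sall3 (2.00), the kinase Yes1 (1.92) and the channel Trpm1 (1.88) rose as well. Mup6 (2.21) belongs to a multigene family whose near-identical copies can share reads, and Mir92-2 is a short RNA gene, so both values are uncertain. Among genes of at least 100 FPKM, Ldhb, a subunit of lactate dehydrogenase, read 50.2, 38 and 45.6 FPKM in Ctrlv2 and 178, 208 and 192 FPKM in Arf-C. Fabp3, a fatty acid carrier, read 72.6, 56.1 and 63.4 FPKM in Ctrlv2 and 229, 292 and 271 FPKM in Arf-C. The groups did not overlap in either gene, and the aquaglyceroporin Aqp3 rose too, from 51.4 ± 6.99 to 158 ± 31.4 FPKM. The largest falls among such abundant genes were in S100a11, the cell adhesion protein Bcam, the actin-binding Tagln2, Ass1 of arginine synthesis, Itpk1, Bex1, Capns1 and Id1, with log2 fold changes from -1.64 to -1.16.

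Other large falls were spread over many functions. Pnma5, an X-linked gene related to retrotransposon Gag, went from 15.1 ± 0.347 to 0.622 ± 0.112 FPKM (-3.31), and Pla2g7, a secreted phospholipase, from 19.2 ± 2.09 to 1.56 ± 0.191 FPKM (-2.98). Plet1, a surface protein of early placental and epithelial cells (-2.61), Calml4 (-2.58), the tubulin gene Tuba3a (-2.57), the myosin light chain gene Myl4 (-2.54) and the ion channel gene P2rx3 (-2.54) fell to at most 4.29 FPKM on average. Among S100 genes, 4 of 7 fell and 3 rose, beside 25.2% and 25% of all genes. S100a11 went from 112 to 35.5 FPKM on average, whereas S100a1 rose by 0.79 and S100a13 by 0.67 on the log2 scale.

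Cdkn2a (chromosome 4, 89274471 to 89294653, minus strand, mm10) was low in both groups. It read 2.92, 1.89 and 3.36 FPKM in Ctrlv2 and 2.18, 2.31 and 2.37 FPKM in Arf-C, which came from 56 to 127 reads per library, and the groups overlapped (log2 fold change -0.16, adjusted p = 0.25). Without Ctrlv2 replicate 2 the difference was called (log2 fold change -0.33, adjusted p = 0.00293). The values are per gene, so p19Arf and p16Ink4a transcripts cannot be told apart in them. Of 17 p19Arf partners and Trp53 regulators, 9 rose and 4 fell, beside 25% and 25.2% of all genes. Trp53 itself fell, from 136, 117 and 135 FPKM to 103 to 107 FPKM (log2 fold change -0.29, adjusted p = 0.00438). Mdm2, the ligase that degrades p53, rose from 22.7, 24.2 and 23.3 FPKM to 29.3, 32.1 and 32.2 FPKM (0.40, adjusted p = 0.00111), and Mdm4, its partner, from 17.9 ± 3.01 to 35.4 ± 4.93 FPKM (SD, n = 3 each). Myc, which induces Arf in other cells, fell from 19.9 ± 0.595 to 8.15 ± 0.442 FPKM. Npm1 passed narrowly (0.27, adjusted p = 0.0442) with overlapping libraries, at 743, 972 and 847 FPKM against 889, 1140 and 1060 FPKM, and gave an adjusted p of 0.149 with the 2 groups fitted alone.

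Among 32 p53 target genes 15 rose and 7 fell, beside 25% and 25.2% of all genes, with a median log2 fold change of 0.17; of the 31 outside the segments 15 rose and 6 fell. Ccng1, a cyclin-like p53 target, read 29.6, 35.9 and 35.1 FPKM in Ctrlv2 and 72.3, 81.1 and 78.2 FPKM in Arf-C (1.18, SE 0.102, adjusted p = 1.37e-07). Trp53inp1 rose from 17.4 ± 5.51 to 36.8 ± 1.07 FPKM. The 2 members that fell at least 2-fold both act in cell death: Pmaip1, which encodes the BH3-only protein Noxa, went from 25.3, 27.8 and 30.3 FPKM to 5.78, 6.99 and 6.43 FPKM (-1.96, SE 0.119, adjusted p = 2.7e-09), and Perp from 22.4 ± 2.53 to 6.60 ± 0.96 FPKM (-1.62). Cdkn1a, the p21 inhibitor of cyclin-dependent kinases, was not called, with 12.7, 8.68 and 10.7 FPKM in Ctrlv2 and 9.92, 13.6 and 10.9 FPKM in Arf-C (0.10, adjusted p = 0.552). Its sign turned when Ctrlv2 replicate 2 or Arf-C replicate 2 was left out (-0.033 and -0.022). Of 23 genes of the Bcl2 family and apoptosis, 13 fell and 2 rose, with a median of -0.25. Bax and Hrk were those that rose, and Bcl2l1, Bcl2l11 and Bmf were among those that fell; the last 2 lie in the chromosome 2 segment.

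Of 9 G1 cyclins and kinases, 7 rose and 1 fell, beside 25% and 25.2% of all genes. Ccnd3 fell from 38.4, 35.5 and 38.2 FPKM to 11.1, 10.9 and 11.3 FPKM (log2 fold change -1.66, SE 0.0832, adjusted p = 3.08e-10). Ccnd1, its relative, rose from 2.9, 2.37 and 2.65 FPKM to 7.95, 8.65 and 8.66 FPKM (1.37, SE 0.138, adjusted p = 7.19e-07). The D-type cyclins therefore moved in opposite directions, and in each the groups did not overlap. Among 11 cell cycle inhibitors 4 rose, led by the antiproliferative Btg1 (9.16 ± 0.305 to 20.1 ± 0.431 FPKM), and none was called lower. Rb1 was level at 3.65 ± 0.399 and 3.73 ± 0.396 FPKM (adjusted p = 0.867) although it lies in the chromosome 14 segment. Of 30 genes of DNA replication and mitosis, 8 rose and 7 fell, close to the shares over all genes. Pcna, the sliding clamp, fell from 252 ± 3.83 to 135 ± 13.3 FPKM and lies in the chromosome 2 segment, while the mitotic kinesin Kif11 rose from 37.7 ± 8.03 to 66.4 ± 3.99 FPKM (SD, n = 3 each).

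Most genes of pluripotency kept levels that the test did not separate. Of 14 core genes, 3 fell and 1 rose, and of 16 naive genes, 4 fell and 2 rose. The shares over all genes were 25.2% lower and 25% higher. Pou5f1 read 691, 604 and 676 FPKM in Ctrlv2 and 417, 508 and 461 FPKM in Arf-C, so every Arf-C library lay below the lowest control, yet the adjusted p of 0.0235 (log2 fold change -0.51) rose to between 0.0539 and 0.0867 when Ctrlv2 replicate 1 or 3 or Arf-C replicate 1 or 3 was left out. Sox2 averaged 302 ± 5.33 and 271 ± 10.8 FPKM, Nanog 262 ± 12.4 and 323 ± 18.7 FPKM and Esrrb 157 ± 4.73 and 163 ± 12.2 FPKM, and none of them was called. Even so, every Arf-C library lay below every control for Sox2 and above every control for Nanog, while Esrrb overlapped. The spread behind these calls came from all 18 libraries, those of day 8 included. Krüppel-like factors of the naive circuit divided. Klf2 rose from 164, 165 and 170 FPKM to 358, 441 and 359 FPKM (1.20, SE 0.256, adjusted p = 0.00134), and Klf5 fell from 175, 191 and 179 FPKM to 96.6, 82.7 and 91.3 FPKM (-1.0, SE 0.12, adjusted p = 5.17e-06). Klf4 was not called at 109 ± 1.38 and 131 ± 12.4 FPKM.

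Genes of the formative and primed states changed in both directions, with 6 of 15 higher and 6 lower, beside 25% and 25.2% of all genes. Tcf7l1, a repressor at Wnt targets that restrains the naive circuit, read 26.1, 24.6 and 24.3 FPKM in Ctrlv2 and 4.14, 4.55 and 4.41 FPKM in Arf-C (-2.28, SE 0.0793, adjusted p = 5.35e-12). Zic2, a zinc finger factor of the epiblast, read 0.689, 0.537 and 0.915 FPKM in Ctrlv2 and 6.62, 7.84 and 7.04 FPKM in Arf-C (2.26, SE 0.151, adjusted p = 7.67e-09). Its head-to-head neighbour Zic5 (1.58) and the epiblast factor Otx2 (1.70) rose with it, while Etv4 (-1.47), Foxd3 (-1.42) and Tcf15 (-1.02) fell. Foxd3 (99656299 to 99658622) lies shortly before the chromosome 4 segment. Of 9 Wnt target genes, 4 rose and 2 fell, and Axin2, the feedback inhibitor, went from 1.51 ± 0.0495 to 3.81 ± 0.403 FPKM. Of 8 neural progenitor genes, 4 rose, Zic2 and Zic5 again among them, and 1 fell. The 13 genes of the 2-cell-like state in the table did not reach the filter.

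More genes fell than rose in the lists of Fgf signalling and of immediate early genes, beside 25.2% lower and 25% higher over all genes. Of 17 genes of Fgf signalling and its feedback, 11 fell and 3 rose (median -0.59), and of 19 immediate early genes, 11 fell and none was called higher (median -0.52). Without Spred1, which lies in the chromosome 2 segment, the Fgf list had 10 of 16 lower. Egr1, a first responder to Erk, read 21.9, 19.6 and 21.2 FPKM in Ctrlv2 and 3.27, 3.26 and 3.32 FPKM in Arf-C (-2.35, SE 0.213, adjusted p = 4.52e-07). Fos, Junb and the Erk phosphatase gene Dusp5 fell too, by 1.16, 1.13 and 1.21 on the log2 scale. Against this direction, the phosphatase gene Dusp4 rose from 3.10 ± 0.539 to 12.5 ± 1.28 FPKM (1.73, adjusted p = 4.37e-08). Of 16 genes of Lif and Stat3 signalling, 6 fell and 1 rose: Pim1 went from 48.3 ± 1.35 to 20.9 ± 0.835 FPKM, and Jak1, in the chromosome 4 segment, from 26.9 ± 1.08 to 8.86 ± 1.33 FPKM. Stat3 (adjusted p = 0.198) and Lifr (adjusted p = 0.0638) were not called. In the Bmp list 8 of 14 rose and 3 fell. Bmp4, the ligand, fell by 1.25 and Smad7, an inhibitory Smad, by 1.25, and the Id genes, which are Bmp targets, split: Id1 fell from 129 ± 10.5 to 57.1 ± 3.82 FPKM, while Id2 rose from 2.71 ± 0.385 to 7.0 ± 0.973 FPKM and Id3 from 10.5 ± 0.746 to 19.8 ± 2.57 FPKM.

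More genes fell than rose in 3 further lists, again beside 25.2% lower and 25% higher over all genes. Of 16 primitive and parietal endoderm genes 12 fell and 1 rose (median -0.77), of 20 extracellular matrix genes 13 fell and 3 rose (median -0.46), and of 16 actin and contractile genes 10 fell and 2 rose (median -0.55). The first of these lists shares basement membrane genes with the second. It also counts Srgn as lower, which passed the filter only through Ctrlv2 (1.87, 1.59 and 1.99 FPKM against 0.0188, 0.0937 and 0.0542 FPKM). Outside the segments 11 of 14 and 12 of 19 genes of these 2 lists fell. Sparc, a matrix glycoprotein, read 92.4, 79 and 92.9 FPKM in Ctrlv2 and 24.2, 25.4 and 24.9 FPKM in Arf-C (-1.78, SE 0.0951, adjusted p = 6.49e-10). Lama1, a laminin chain, fell from 36.8 ± 2.89 to 16.6 ± 3.03 FPKM, Krt8 from 11.6 ± 1.86 to 4.46 ± 0.331 FPKM and Anxa2 from 5.51 ± 0.977 to 0.671 ± 0.23 FPKM. Fibronectin, Fn1, went the other way, from 95.6 ± 11.5 to 179 ± 38.3 FPKM. The defining transcription factor Gata4 was not called, at 1.72 ± 0.282 and 2.00 ± 0.331 FPKM, and lies in the chromosome 14 segment. The 8 primitive endoderm markers summed to 4.27 to 5.02 FPKM in Ctrlv2 and 2.60 to 3.57 FPKM in Arf-C; without Sox7, which lies in the same segment and went from 1.90 to 2.25 FPKM down to 0.241 to 0.599 FPKM, the other 7 summed to 2.30 to 2.77 and 2.33 to 3.05 FPKM. Thy1, a marker of fibroblasts that stem cells can also carry, fell from 15.7 ± 0.986 to 2.01 ± 0.231 FPKM, and the other 7 fibroblast markers stayed below 0.5 FPKM in every library, 2 of them at 0. Epithelial genes moved less evenly, with 10 of 23 higher and 6 lower. Esrp1, an epithelial splicing factor, rose from 0.811 ± 0.0381 to 4.6 ± 0.567 FPKM and the claudin Cldn6 from 6.27 ± 0.6 to 14.1 ± 0.368 FPKM, whereas E-cadherin, Cdh1, averaged 79.5 ± 6.24 and 78.8 ± 1.89 FPKM (adjusted p = 0.916).

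In carbohydrate metabolism 13 of 27 identifiers of glucose uptake and glycolysis fell and 4 rose (median -0.29), beside 25.2% and 25% of all genes. Hk2, which traps glucose in the cell, read 83.9, 97.9 and 81.3 FPKM in Ctrlv2 and 32.4, 25 and 28.6 FPKM in Arf-C (-1.58, SE 0.098, adjusted p = 3.49e-09), and the transporter Slc2a1 read 84.9, 89.1 and 96.4 FPKM against 34.4, 35.8 and 36.4 FPKM (-1.32, SE 0.102, adjusted p = 3.97e-08). Ldhb, described above, was the large exception. Gapdh ranged from 18.7 to 106 FPKM within Ctrlv2 and from 15.7 to 99.1 FPKM within Arf-C, so nothing can be read from it; it has many near-identical pseudogenes. Of 17 heat shock and chaperone genes 10 fell and 3 rose, among them Hspa8 from 540 ± 24.7 to 359 ± 16.2 FPKM and Xbp1, a regulator of the unfolded protein response, from 25.8 ± 1.3 to 14.6 ± 1.23 FPKM. In the Atf4 and amino acid stress list, where 6 of 19 rose and 5 fell, Ddit3 rose from 21.1 ± 3.38 to 48.8 ± 2.11 FPKM and Cebpb from 4.10 ± 0.917 to 10.5 ± 1.78 FPKM (SD, n = 3 each).

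The list with the highest share of risers after the G1 genes was that of splicing kinases and SR proteins, where 20 of 26 rose and only Cirbp fell (median 0.27). Over all genes 25% rose and 25.2% fell. Clk1, a kinase that phosphorylates SR proteins, read 6.53, 9.51 and 8.78 FPKM in Ctrlv2 and 36, 34.6 and 37.6 FPKM in Arf-C (2.01, SE 0.14, adjusted p = 1.53e-08). Clk4 (1.27), Tra2a (1.22), Rbm39 (0.95) and the nuclear RNA Neat1 (1.33) rose with it. Gene length moved with the calls: of 3574 genes of at least 6 kb 34.2% rose and 22.7% fell, and of 1907 genes of 1 to 2 kb 20.8% rose and 26.5% fell. By library, the median of genes of at least 6 kb, centred over the 6 libraries, was -0.035, 0.021 and -0.057 in Ctrlv2 and 0.098, -0.032 and 0.043 in Arf-C on the log2 scale, so the groups overlapped, and the part of length in these lists was not tested. Mitochondrial RNA made up 4.58%, 5.69% and 5.30% of FPKM in Ctrlv2 and 7.07%, 5.71% and 7.24% in Arf-C. Of 12 genes of histones and linker histones 8 rose and Hist1h1c fell, with H1fx at 18.3 ± 2.86 and 28.5 ± 4.68 FPKM.

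Several other lists divided or stayed near the shares over all genes, 25% higher and 25.2% lower. In the Notch list 4 of 11 genes rose and 3 fell: the ligand genes Jag1 (1.01) and Dll1 (0.96) rose, and the receptor gene Notch1 (-0.48) and the mediator Rbpj (-0.62) fell. Of 17 Yap targets and partners 7 fell and 3 rose. Ctgf, a classical Yap target, fell by 0.92, and the kinase gene Lats1, which restrains Yap, rose by 0.63. Its relative Lats2 (0.51) passed the filter only through Arf-C, so its value is a description. In the Nodal list (3 of 15 higher, 4 lower) the antagonists Lefty1 (0.72) and Lefty2 (-0.48) moved apart. Of 12 genes of the retinoic acid response 5 fell and 2 rose, and after Stra8 the largest falls were in the carrier Crabp1 (-0.89) and the receptor Rarg (-0.68). Of 22 Polycomb genes 5 rose and 3 fell. The subunits that fell were the accessory ones Phf19 (-1.13), Jarid2 (-0.96) and Epop (-0.85), while the core subunit Suz12 rose by 0.47.

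The next lists also stand beside 25.2% lower and 25% higher over all genes. Of 18 hypoxia genes 7 fell and 4 rose, with Vegfa lower (-0.66) and Hif1a, the oxygen-regulated factor itself, higher (0.66). Of 22 genes of cholesterol synthesis 6 fell and 3 rose, led by Fdft1 in the chromosome 14 segment (31.6 ± 1.81 to 15.3 ± 1.22 FPKM). In nucleolar ribosome assembly 8 of 24 rose and 7 fell: Nop58 (0.55) and Dkc1 (0.46) of the small nucleolar particles rose, and Bop1 (-0.55) fell. Of 14 targets of Nrf2 and genes of iron handling 4 fell and 3 rose, with Srxn1, a sulfiredoxin, going from 28.8 ± 1.46 to 15.9 ± 0.211 FPKM. In antigen presentation 5 of 10 fell and 4 rose, among them H2-Q4 from 4.98 ± 0.3 to 12.9 ± 0.316 FPKM, which belongs to a family of similar genes that can share reads. Of 9 trophoblast genes 3 rose and 3 fell, with Tfap2c (2.24) and Gata2 (0.97) higher and Krt8 (-1.19) lower. Gata2 passed the filter only through Arf-C, so its value is a description. Among the 6 genes of the fibroblast list that were tested, Vim, Fn1 and Twist1 rose, and Thy1 and Loxl1 fell. Of the 2 tested mesendoderm genes, Cdx1 rose narrowly (0.46, adjusted p = 0.042). Its call was lost with no filter (adjusted p = 0.0798) and with a pseudocount of 0.1 (0.0618). It was also lost without Ctrlv2 replicate 2 (0.178) or 3 (0.0528) or any Arf-C replicate (0.0638 to 0.125). Of 13 genes encoded in mitochondria 3 rose and 1 fell, and mt-Co1, a subunit of cytochrome oxidase, rose by 0.60. The call of mt-Nd3, which fell, was lost whichever of the 6 libraries was left out (adjusted p 0.0511 to 0.166). The calls of mt-Nd4 and mt-Nd6, which rose, were lost without Ctrlv2 replicate 1 (0.111 and 0.0704). They were also lost without Arf-C replicate 3 (0.0954 and 0.0687) and with the compared groups fitted alone (0.0705 and 0.0651).

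**Figure D3:**
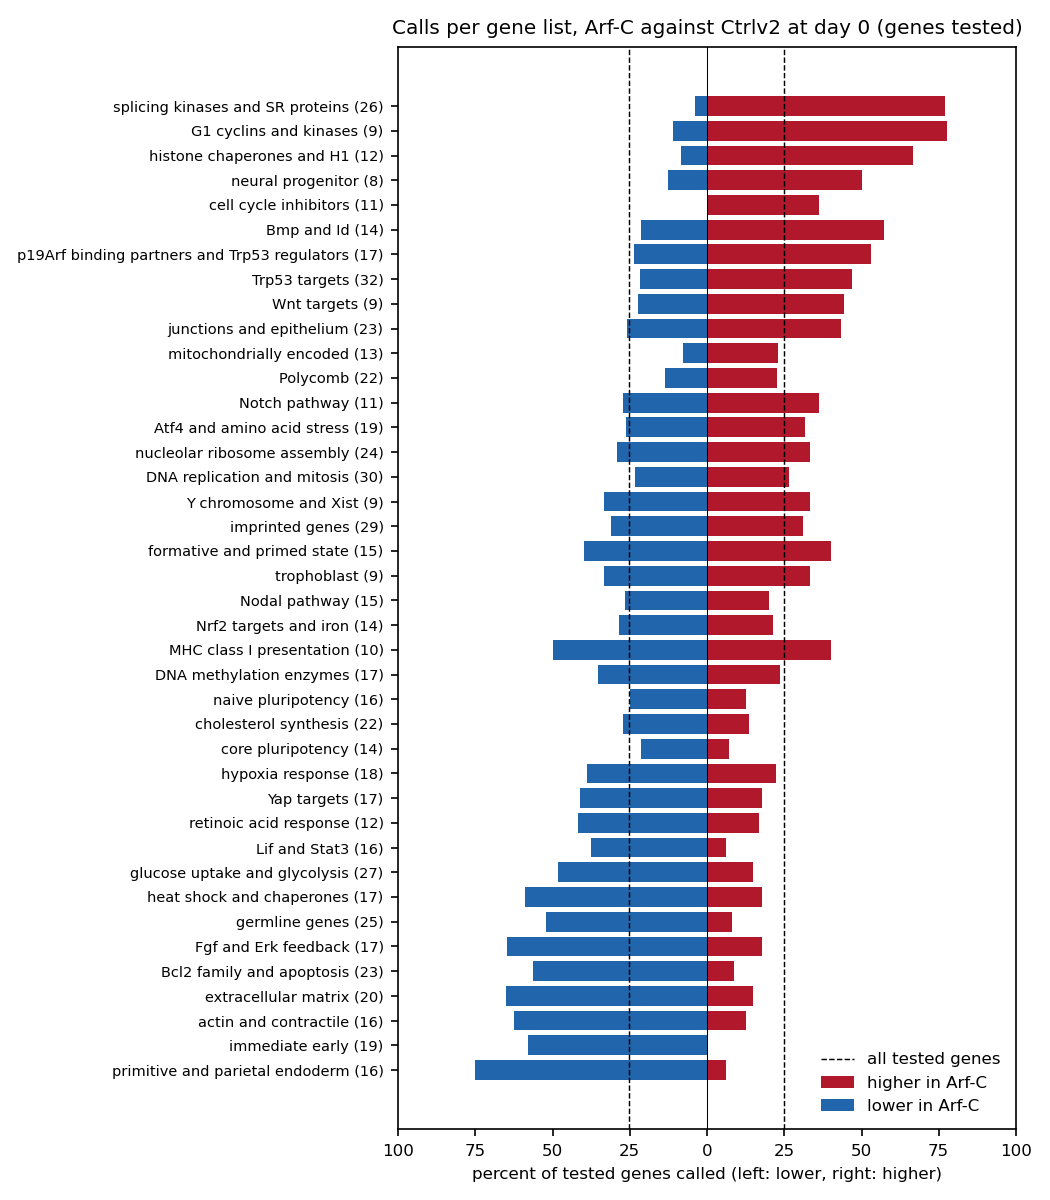
Share of each gene list called higher (red, to the right) and lower (blue, to the left) in Arf-C against Ctrlv2 at day 0, in percent of its tested genes, whose number follows the name; lists with at least 8 tested genes are shown. Dashed lines give the shares over all genes, 25% and 25.2%; the splicing and G1 lists extend furthest right, and the primitive endoderm and extracellular matrix lists furthest left.

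Genes on 3 chromosome segments stood apart from the rest and are described separately. The segments were chosen with results of these data known, so their values are a description. The chromosome 14 segment runs from 60 to 80 Mb, and its tested genes from position 60205282 to 79635196; 106 of 139 tested genes (76.3%) were lower and 3 higher, with a median log2 fold change of -0.80. In the chromosome 2 segment, with tested genes from position 115581716 to 144768758, 134 of 227 (59.0%) were lower and 11 higher (median -0.38). In the chromosome 4 segment, with tested genes from 100776675 to 104804548, 11 of 16 (68.8%) were lower and 2 higher (median -0.63). The 14099 genes outside had 3606 higher (25.6%) and 3401 lower (24.1%), with a median of 0.02. In genes of at least 5 FPKM in the higher group, the median ratio of FPKM to the Ctrlv2 mean was 0.492, 0.483 and 0.499 in the 3 Arf-C libraries on chromosome 14 (92 genes) and 0.694, 0.716 and 0.702 on chromosome 2 (142 genes). On chromosome 4 (10 genes) it was 0.495, 0.496 and 0.494, and outside the segments it was 1.00, 1.03 and 1.02. The 3 Arf-C libraries therefore gave nearly the same ratio within each segment.

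The genes with the largest falls on chromosome 14 were Clu, the chaperone clusterin, Dleu7, Fam167a, Sorbs3, the lysyl oxidase Loxl2 and Piwil2. Clu (65968483 to 65981547, plus strand) read 16.7, 14.2 and 16.8 FPKM in Ctrlv2 and 2.06, 2.15 and 1.56 FPKM in Arf-C (-2.53, SE 0.0866, adjusted p = 4.45e-12). Its neighbour Ephx2, a soluble epoxide hydrolase, went against the segment, from 25.9, 18 and 23.8 FPKM to 48.4, 48.4 and 48.1 FPKM (1.08). On chromosome 2, Gpat2 (6.67 ± 0.161 to 1.48 ± 0.131 FPKM) and Prnp, the prion protein gene (7.49 ± 1.31 to 2.22 ± 0.279 FPKM), fell furthest, and Sord, Patl2 and B2m, which lie close together, were higher, with Sord at 14.9 ± 2.1 and 28.1 ± 2.02 FPKM. On chromosome 4, Jak1, Ak4, Leprot and Dnajc6 fell, with Leprot going from 73.1, 71.4 and 77.5 FPKM to 26.5, 28.4 and 28.1 FPKM, and Cachd1 rose from 1.49 ± 0.164 to 6.92 ± 0.388 FPKM (SD, n = 3 each). The rule for naming genes per segment required groups that do not overlap, so the rises against the segments are a description without a test.

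The bounds given are not where the lower values stop. On chromosome 2 the 13 tested genes in the 5 Mb directly before the segment had 7 lower and 1 higher (median -0.30), and the 16 in the 5 Mb before those had 7 lower and 1 higher (median -0.20). The 29 tested genes that lie 10 to 15 Mb before the segment had 19 lower and none higher (median -0.41), and Platr14, a noncoding RNA of stem cells that fell from 60.4 ± 8.38 to 9.84 ± 1.57 FPKM, lies there. In the 5 Mb on the other side 6 of 12 genes were higher and 1 lower. On chromosome 14 the 37 tested genes of the first 5 Mb had a median of -0.58 and the 34 of the last 5 Mb one of -0.90. Beyond it genes are few, but 15 to 20 Mb past its end, where Klf5 lies, 6 of 7 were lower (median -0.88), and 20 to 25 Mb past it 10 of 14 were lower (median -0.41). On chromosome 4 the 17 tested genes in the 2.5 Mb before the segment, where Foxd3 lies, had 7 lower and 2 higher (median -0.16). The 18 in the 2.5 Mb after it had 6 lower and 1 higher (median -0.14). Over the 5 Mb on both sides pooled the medians were 0.04 for chromosome 2, 0.09 for chromosome 14 and -0.09 for chromosome 4. On chromosome 14 these are genes before the segment only, since no tested gene lies in the 5 Mb after it.

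**Figure D4:**
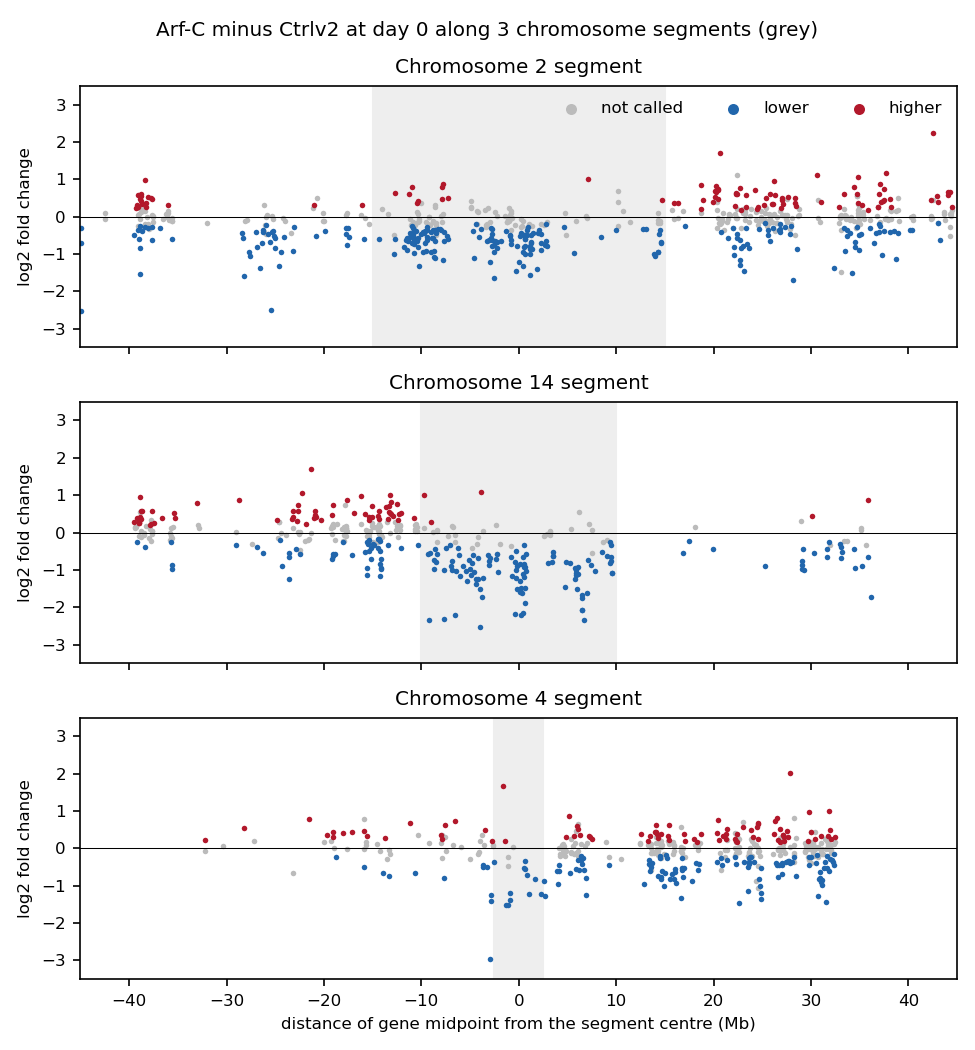
Log2 fold change of Arf-C minus Ctrlv2 at day 0 (vertical axes) for tested genes within 45 Mb of the centre of each segment (horizontal axis, distance in Mb; grey band, the segment), with higher genes red, lower genes blue and the others grey. Within the grey bands most points lie below 0; on chromosome 14 lower genes go on to the right of the band, and on chromosome 2 a group of lower genes lies to its left.

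Arf-B, the other line of the study at day 0, was close to Arf-C: 51 genes (0.352%) were higher and 28 (0.193%) lower in Arf-C than in Arf-B by limma. At an unadjusted p below 0.05 there were 1781 genes. The counts of higher and lower genes were 12 and 7 without Arf-B replicate 3, 19 and 7 without Arf-C replicate 1, and 11 and 7 without Arf-C replicate 3; without Arf-B replicate 1, 32 genes were higher. The segments were low in Arf-B as well, with median ratios to Ctrlv2 of 0.474 to 0.484 on chromosome 14, 0.705 to 0.726 on chromosome 2 and 0.584, 0.458 and 0.539 on chromosome 4, where the 3 libraries spread more than those of Arf-C. Because the comparisons with Ctrlv2 and with Arf-B share the Arf-C libraries, values are given side by side only. Ripply3, a transcriptional corepressor, averaged 27.3 ± 1.07 FPKM in Arf-C beside 11.4 ± 2.01 in Arf-B and 8.80 ± 1.04 in Ctrlv2 (SD, n = 3 each; Arf-C minus Arf-B 1.20, adjusted p = 0.00567). Trpm1 averaged 5.15 ± 0.268, 2.15 ± 0.0612 and 0.672 ± 0.165 FPKM in the same order (0.96, adjusted p = 1.29e-05). The Y-linked helicase gene Ddx3y read 6.57, 21.2 and 12 FPKM in Ctrlv2 and 0.658, 0.462 and 0.542 FPKM in Arf-C, while Arf-B averaged 8.87 ± 0.556 FPKM (-2.67, adjusted p = 0.000141). Its neighbour Uty averaged 0.096 ± 0.0424 FPKM in Arf-C, 2.98 ± 0.363 in Arf-B and 2.73 ± 0.813 in Ctrlv2, and Eif2s3y, next in line, 9.75 ± 0.757, 14.5 ± 1.73 and 17.3 ± 3.53 FPKM, where Arf-C and Arf-B did not differ by the test (adjusted p = 0.0715). Ddx3x and Kdm6a, the X-linked homologues of Ddx3y and Uty, were higher in Arf-C than in Ctrlv2 by 0.87 and 0.66 on the log2 scale. Slc9a3r2 averaged 7.72 ± 0.702, 3.34 ± 0.21 and 10.0 ± 1.77 FPKM, lowest in Arf-B. With the Arf-B and Arf-C libraries fitted alone, 5 genes were higher and 3 lower, and the calls of Platr14 (adjusted p = 0.0639), B2m (0.125), Id2 (0.0703) and Dnmt3b (0.224) were lost.

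At day 8, in libraries that share no sample with day 0, 2413 genes (16.7%) were higher and 2482 (17.1%) lower in Arf-C than in Ctrlv2. Genes higher on both days numbered 704, which is 19.4% of the day 0 list and 29.2% of the day 8 list, and genes lower on both days numbered 1026, 28.1% and 41.3% of the lists. In the opposite directions, 515 genes went from higher to lower and 593 from lower to higher. Of the 755 genes that changed at least 2-fold at day 0, 256 had the same call at day 8, 83 the opposite one and 416 none. The test of the change itself called 6030 genes (41.6%). The segments kept their values, with medians of -0.77 on chromosome 14, -0.39 on chromosome 2 and -0.70 on chromosome 4.

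Peg10, Mest and Tcf7l1 were lower on both days. Peg10 averaged 407 FPKM in Ctrlv2 and 14.5 FPKM in Arf-C at day 8 (log2 fold change -4.72), Mest 53.8 and 3.29 FPKM (-3.68) and Tcf7l1 31.5 and 4.45 FPKM (-2.58). Rhox5 stayed lower (-4.02 at day 8), as did Egr1 (-2.82) and Sparc (-2.06). Stra8, which at day 8 averaged 807 and 707 FPKM, was no longer called (-0.19, adjusted p = 0.161), and the change between the days was 3.49. S100a6 differed little by then (-0.31, adjusted p = 0.0485) and was low in both groups, at 1.86 FPKM in Ctrlv2 and 1.30 FPKM in Arf-C. Setbp1 (0.24, adjusted p = 0.0969), Cd24a (0.11, adjusted p = 0.257) and Clk1 (-0.24, adjusted p = 0.206) were not called. Fabp3 crossed over, from 2.03 at day 0 to -1.01 at day 8, as did Tuba3a, from -2.57 to 0.92, P2rx3, from -2.54 to 0.40, and Ccnd3, from -1.66 to 0.26 (adjusted p = 0.0244). Nanog averaged 0.537 FPKM in Ctrlv2 and 32.8 FPKM in Arf-C at day 8 (4.44, adjusted p = 5.4e-08), after a day 0 difference that was not called.

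**Figure D5:**
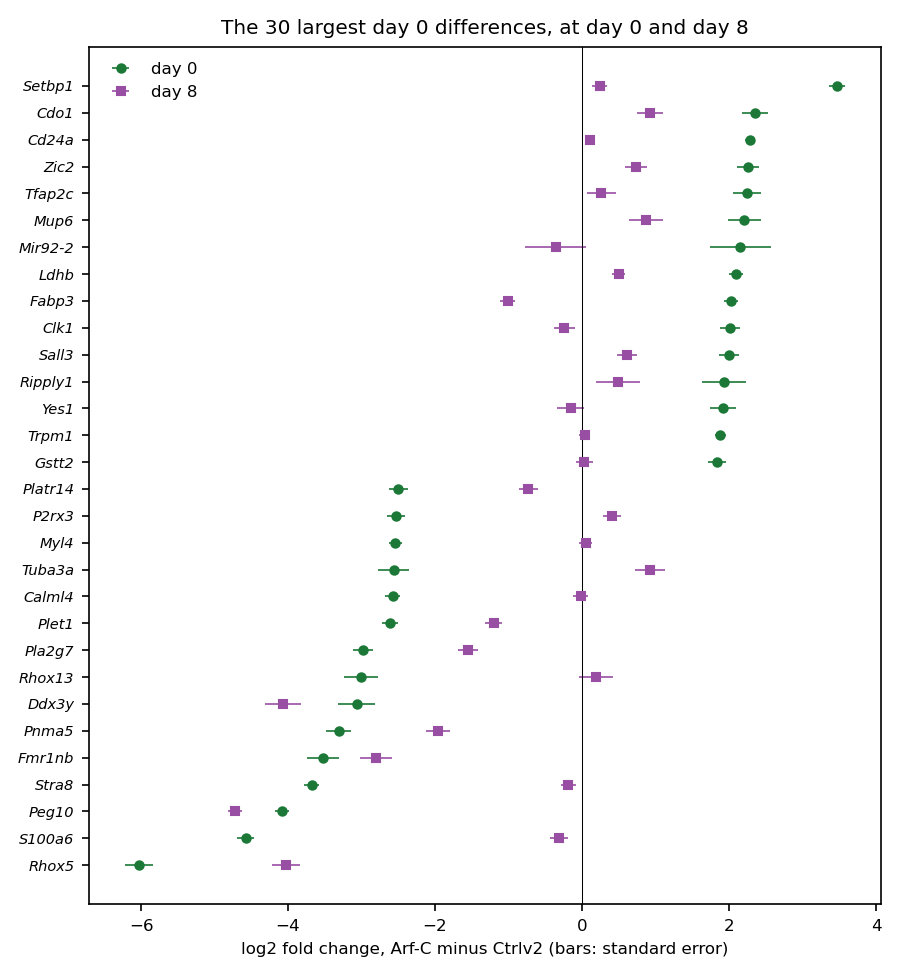
Log2 fold change of Arf-C minus Ctrlv2 with its standard error at day 0 (green circles) and day 8 (purple squares) for the 15 largest rises and 15 largest falls of day 0 among named genes outside the segments. The day 8 values of most genes lie nearer to 0; Peg10 and Ddx3y lie further from it, and Fabp3, Tuba3a and P2rx3 are called in the opposite direction.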

How the data were processed

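Poly(A) RNA was sequenced from 18 libraries in 6 groups of 3. The authors deposited 1 table of FPKM values per gene with coordinates and gene lengths; the submitters' processing notes name HISAT2, featureCounts, DESeq2 and mm10, with no versions or roles. FPKM multiplied by gene length gave whole reads (within 0.001) for all 413772 values above 0, so values rest on reads per gene.

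Here log2(FPKM + 1) was fitted with limma 3.58.1 in R 4.3.3, with 1 coefficient per group over all 18 libraries and trended, robust variances; Benjamini-Hochberg adjustment ran across all 14481 genes, and calls need an adjusted p below 0.05. Scripts were tested on simulated data. The contrasts were Arf-C against Ctrlv2 at day 0 and day 8, their difference, and Arf-C against Arf-B at day 0. A gene belongs to a segment by its midpoint.

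Members and the 45 gene lists were chosen with earlier results of these data known, so list counts are descriptions set beside the shares over all genes. Named genes were called, had a known symbol and at least 5 FPKM in the higher group, and had groups that did not overlap: the 15 largest changes each way, the 8 largest each way among genes of at least 100 FPKM, 6 each way per segment and against Arf-B, and list members changed at least 2-fold, or else up to 4. Cdkn2a, Trp53, Mdm2, Cdkn1a and Npm1 were named regardless. List members below 5 FPKM or with overlapping libraries, and other genes named, were chosen after their values were seen. Alternatives covered the pseudocount, filters, scaling, libraries fitted, limma-voom on the recovered reads, a replicate block and each library left out.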

Additional observations from a re-analysis of the deposited data

Results flagged for a closer look

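The difference between Arf-C and Ctrlv2 changed from day 0 to day 8 in 6030 genes by the limma test of that change (adjusted p below 0.05). The test also called 29 of the 30 genes with the largest day 0 differences, all but Fmr1nb. Those 30 were picked by the same day 0 difference that the test contains. A smaller difference at day 8 was therefore favoured, and the count is a description. Rhox5, Peg10 and Myl4 also passed the filter only through Ctrlv2, and Setbp1 only through Arf-C. Among the genes that were higher at day 0, the difference moved by -3.23 on the log2 scale in Setbp1, -3.04 in Fabp3, -2.51 in Mir92-2, -2.25 in Clk1, -2.18 in Cd24a, -2.07 in Yes1, -1.98 in Tfap2c and -1.85 in Trpm1. It moved by -1.80 in Gstt2, -1.60 in Ldhb, -1.53 in Zic2, -1.44 in Ripply1, -1.43 in Cdo1, -1.39 in Sall3 and -1.34 in Mup6. Among the genes that were lower at day 0, the difference grew in Ddx3y (-1.0) and Peg10 (-0.63). It shrank or turned in Pnma5 (1.36), Plet1 (1.41), Pla2g7 (1.43), Platr14 (1.77), Rhox5 (2.01), Calml4 (2.56), Myl4 (2.60), P2rx3 (2.94), Rhox13 (3.20), Tuba3a (3.49), Stra8 (3.49) and S100a6 (4.26). Some of these were low in both groups at day 8. Calml4 averaged 0.128 FPKM in Ctrlv2 and 0.111 FPKM in Arf-C, and Myl4 0.0796 and 0.119 FPKM. Rhox13 averaged 1.16 and 1.56 FPKM, and S100a6 1.86 and 1.30 FPKM. In these genes the smaller difference came with a fall in Ctrlv2, whereas Stra8 averaged 807 and 707 FPKM.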

How the results depend on the processing

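The counts of higher and lower genes at day 0, at day 8 and in the change between days stayed within 1.5 times under every alternative run; leaving out 1 library gave 3078 to 3431 higher and 3116 to 3560 lower genes at day 0. Counts of at least 2-fold changes rose to 736 higher and 1136 lower with limma-voom on recovered reads and to 609 and 1026 with a pseudocount of 0.1; both settings shrink low genes less. Against Arf-B the counts of higher genes were 5 with the 9 day 0 libraries, 5 with those groups alone, 101 with limma-voom and 33 with no filter, and those of lower genes 6, 3 and 87 with the first 3 settings. Leaving out 1 library gave 11 to 45 higher and 7 to 41 lower; the counts fell by over 1.5 times without Arf-B replicate 1 (32 higher), Arf-B replicate 3 (12 and 7), Arf-C replicate 1 (19 and 7) or Arf-C replicate 3 (11 and 7). The segment medians on chromosomes 2 and 14 were -0.40 and -0.82 with a filter at a mean of 1 FPKM, -0.48 and -1.02 with limma-voom, -0.48 and -1.0 with a pseudocount of 0.1 and -0.35 and -0.77 with libraries scaled to the same sum. Chromosome 4 gave -0.87 with limma-voom and -0.85 with a pseudocount of 0.1. Leaving out 1 library gave -0.42 to -0.38 on chromosome 2 and -0.82 to -0.77 on chromosome 14. The flanking 5 Mb gave 0.039, 0.090 and -0.089, which are other genes. Cdkn1a, not called in any of these, ranged from -0.033 (without Ctrlv2 replicate 2; -0.022 without Arf-C replicate 2) to 0.22; the cause was not tested.

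Replicate numbers did not pair the samples, with correlations between same-numbered libraries of -0.142, -0.287 and 0.045, and a replicate block gave 3566 higher and 3623 lower genes. Of 182 called named genes, 172 kept their call in every alternative. Depth limits low genes: below about 1 FPKM a difference on the log2(FPKM + 1) scale is bounded by the pseudocount.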

Other observations

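Zinc finger genes named Zfp and a number, a set chosen after the differences along the chromosomes were seen, were often higher: 168 of 339 tested were higher in Arf-C at day 0 and 31 lower, with a median log2 fold change of 0.25, beside 25% and 25.2% of all genes. In a cluster of chromosome 4 between positions 144972622 and 147492201, 24 of 44 tested genes were higher and 2 lower (median 0.60), and 11 of the 12 Zfp genes there were higher. On chromosome 2 from 175 to 180 Mb 17 of 42 were higher and 3 lower (median 0.41), most of them predicted genes. These clusters hold near-identical copies that can share reads. Of 993 tested processed pseudogenes 204 were lower and 77 higher, beside 25.2% and 25% of all genes. Processed pseudogenes were thus called less often than all genes in both directions. The median gene length was 4489 bases among higher genes and 3724 bases among lower ones.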
